A study of Homo sapiens with 12 samples.

Results

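The 5.8S ribosomal RNA, the 7SL RNA, the 7SK RNA and the U1 small nuclear RNA are abundant structural RNAs. The gene table lists several rows for each, functional copies and pseudogenes together. The copies described here were the rows of the gene table with the symbol RNA5-8SN4 or RNA5-8S4 (5.8S), RN7SL1 or RN7SL2 (7SL), RN7SK (7SK), and RNU1-27P or RNU1-28P (U1). The 7 symbols gave 8 of 58302 gene rows, because RNA5-8S4 named 2 rows. They were selected on their measured input levels and on the difference between the input groups, so those values are given as a description, with no test. Of the 8 rows, 5 were above 0 in the input libraries and 3 were at 0 in every one.

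The 5.8S RNA pairs with the large-subunit ribosomal RNA inside the ribosome and is cut from the same precursor. The 7SL RNA is the scaffold of the signal recognition particle, which brings ribosomes that make secretory proteins to the endoplasmic reticulum, and the 7SK RNA holds the elongation factor P-TEFb in an inactive particle. The U1 RNA recognises the 5′ splice site within the spliceosome. RNA polymerase III makes 7SL and 7SK, RNA polymerase II makes U1, and RNA polymerase I makes the 5.8S precursor.

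The study measured N4-acetylcytidine (ac4C), a modified RNA base written by the enzyme NAT10, by immunoprecipitation of RNA pieces and sequencing. The cells were DLD1, an established human colorectal cancer line at passage 5, and carried either the hairpin labelled shNC, taken as the control, or the hairpin labelled shNAT10. From each, 100 µg of total RNA was cut into pieces of 100 to 200 nt and read as 150 bp pairs, and each of 4 groups (input and immunoprecipitate of either hairpin) held 3 of the 12 libraries. The 6 input libraries are compared below in FPKM, which is fragment counts divided by gene length and by the size of the library. How the hairpins were delivered, whether the cells were 1 clone, and whether replicates came from separate cultures are not given in the sources at hand, so any spread is that between samples and may be technical. In bulk samples, fewer cells of a type and less RNA per cell cannot be told apart.

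NAT10, the targeted gene, had FPKM 1.24, 3.95 and 2.89 in replicates 1 to 3 of shNC and 0, 28.1 and 31.4 in the shNAT10-labelled inputs. Replicates 2 and 3 of the latter therefore went against their label, and every direction below is that of the libraries as labelled. Of 10 epithelial markers, 8 were above 0 in all 6 libraries, and their summed FPKM was 5090 to 5410 in the shNC inputs and 8170 to 8650 in the shNAT10-labelled inputs. KRT8 held most of that sum in every library, while EPCAM ran the other way without overlap, at 226, 370 and 262 against 38.3, 80.3 and 128. Among the leukocyte markers CD3E, CD68 and LYZ were at 0 in all 6 libraries, and PTPRC reached 0.199 in 1 library. The 6 fibroblast and muscle markers summed to 1.12 to 6.34 in the shNC inputs and to 24.3 to 82.2 in the shNAT10-labelled inputs, where COL1A1 and COL1A2 stayed below 1 and COL3A1 was at 0. A different gene carried that sum in each of the latter, TAGLN at 68.9 in replicate 1, ACTA2 at 22.0 in replicate 2 and VIM at 78.0 in replicate 3. Their part in the results was not tested.

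RNA5-8SN4 (ENSG00000275215) was the most even of the abundant copies. Its FPKM was 12349, 12033 and 11194 in replicates 1 to 3 of shNC and 25257, 27478 and 33572 in the shNAT10-labelled inputs. The 3 latter libraries were all higher, and the lowest of them stood at 2.05 times the highest shNC library. The means were 11858 ± 597 and 28769 ± 4305 (SD, n = 3 each), and the difference of mean log2(FPKM + 1) was 1.27. Among all gene rows RNA5-8SN4 ranked 5, 5 and 4 in the shNC inputs and 3 in each library labelled shNAT10.

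RNA5-8S4 named a second 5.8S copy at a much lower level. Its row ENSG00000278189 had FPKM 326, 555 and 1265 in the shNC inputs and 2497, 2281 and 4965 in the shNAT10-labelled inputs. These groups did not overlap either, and the log2 difference was 2.31. Within shNC the highest library was 3.87 times the lowest, against 1.10 times for RNA5-8SN4. The other row of the symbol, ENSG00000278233, was listed at 0 in all 6 libraries.

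The copies of the 5.8S RNA therefore did not stand in a fixed ratio. RNA5-8SN4 was 37.8, 21.7 and 8.85 times RNA5-8S4 in shNC replicates 1 to 3, and 10.1, 12.04 and 6.76 times in the shNAT10-labelled inputs. Both groups had their lowest ratio in replicate 3, and the ranges of the groups overlapped. Of 13 gene rows named for 5.8S, 5 were above 0 in at least 1 library, and both member symbols together held 99.6% to 100.0% of the summed 5.8S level in every library. RNA5-8S5, the next copy, had FPKM 7.73, 51.7 and 0 in the shNC inputs and 0, 0 and 158 in the shNAT10-labelled inputs. RNA5-8SN1 and RNA5-8SN2 did not pass 5.46 in any library.

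RN7SL2 (ENSG00000274012, GRCh38 chr14:49862551-49862849 in RefSeq, minus strand) was the highest member by mean. Its FPKM was 13166, 42174 and 12464 in the shNC inputs and 30020, 28116 and 88099 in the shNAT10-labelled inputs. The groups overlapped, since shNC replicate 2 exceeded replicates 1 and 2 of the other group. The means were 22601 ± 16954 and 48745 ± 34095 (SD, n = 3 each), with a log2 difference of 1.14 and SDs within the groups of 0.99 and 0.93 on that scale. Without shNC replicate 2 the log2 difference was 1.72, without replicate 3 labelled shNAT10 it was 0.61, and without both libraries numbered 3 (a choice made after seeing the data) it was 0.30. RN7SL2 ranked first of all rows in 3 of the 6 libraries and no lower than 4 in the others.

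RN7SL1 (ENSG00000276168, chr14:49586580-49586878, plus strand), the other functional 7SL copy among the members, was listed at 0 in all 6 libraries. A value of 0 beside a near-identical copy at a high level is a property of the table and does not show that the RNA was absent. How the authors' counting shared reads between copies is not given in the sources at hand, so every split between copies in these values is uncertain.

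Other 7SL copies took a large and uneven share. RN7SL5P, annotated in RefSeq as a pseudogene, had FPKM 28212, 24688 and 364 in the shNC inputs and 30417, 20235 and 427 in the shNAT10-labelled inputs. It was low in replicate 3 of both groups and did not separate the groups. RN7SL2 was 0.467, 1.71 and 34.3 times RN7SL5P in shNC, and 0.987, 1.39 and 207 times in the others. RN7SL4P, another pseudogene, had FPKM 998, 498 and 1076 against 903, 2491 and 478. RN7SL3, a functional copy, had 241, 495 and 152 against 903, 786 and 835, and its groups did not overlap in FPKM.

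Summed over the 680 rows named for 7SL, of which 20 were above 0, the level was 43004, 68404 and 14555 in the shNC inputs and 62750, 52223 and 90891 in the shNAT10-labelled inputs. The groups of this sum overlapped, with a ratio of means of 1.63 against 2.16 for RN7SL2 alone. RN7SL2 held 30.6%, 61.7% and 85.6% of it in shNC and 47.8%, 53.8% and 96.9% in the others. The bars of copy shares show the highest RN7SL2 share in replicate 3 of either group.

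**Figure D1:**
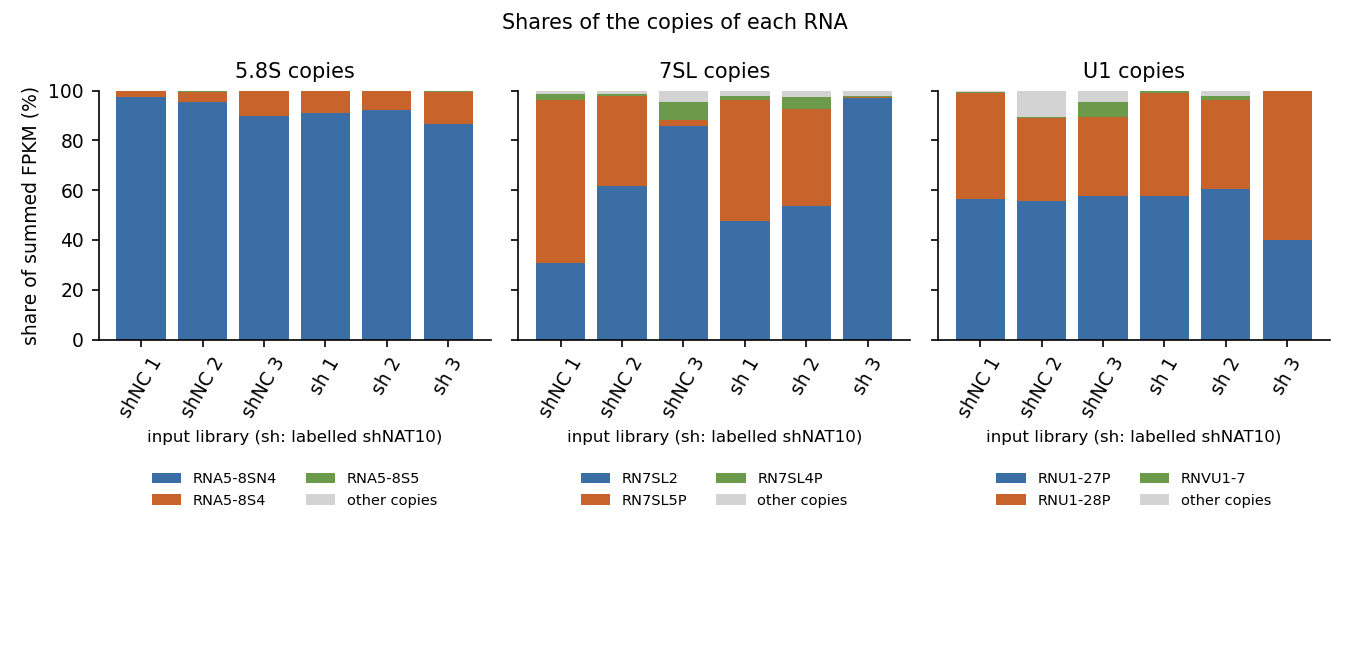
Share of summed FPKM (%, vertical axis) held by the 3 most abundant copies and by all other copies of 5.8S, 7SL and U1, for each input library (horizontal axis; sh stands for libraries labelled shNAT10). RN7SL5P has its lowest 7SL share in replicate 3 of either group, while RNA5-8SN4 keeps 86.7% or more of 5.8S in every library.

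RN7SK (ENSG00000283293, chr6:52995620-52995951) was listed at 0 in all 6 libraries, as were the 7 rows that the table names only 7SK. Of 294 rows named for 7SK copies, 15 were above 0. Their summed FPKM was 347, 170 and 123 in the shNC inputs and 360, 178 and 191 in the shNAT10-labelled inputs, so that the groups overlapped. RN7SKP203, a 7SK pseudogene, led with 57.0, 129 and 64.2 against 290, 119 and 101. RN7SKP163 was above 0 in shNC replicate 1 alone, at 245. RN7SKP71 had 1.86, 9.57 and 3.67 against 27.2, 25.2 and 39.4 and did not overlap, at a level far below that of the 5.8S and 7SL copies. These values give the level of pseudogene copies and not of the 7SK gene itself.

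RNU1-27P and RNU1-28P are U1 copies that RefSeq lists as pseudogenes of 164 nt (chr14:34546714-34546877 and chr14:34556226-34556389), while the authors' table calls both snRNA. RNU1-27P (ENSG00000206596) had FPKM 177, 325 and 957 in the shNC inputs and 2571, 2584 and 901 in the shNAT10-labelled inputs. The groups touched, because shNC replicate 3 was above replicate 3 of the other group. The log2 difference was 2.25, with SDs within the groups of 1.23 and 0.88, and it was 3.42 without both libraries numbered 3.

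RNU1-28P (ENSG00000206588) had 132, 195 and 527 in the shNC inputs and 1830, 1534 and 1354 in the shNAT10-labelled inputs. Its groups did not overlap, and its log2 difference of 2.71 was the largest of the 5 rows. Both U1 copies were highest in replicate 3 within shNC and lowest in replicate 3 within the other group. RNU1-27P was 1.34, 1.67 and 1.82 times RNU1-28P in shNC, and 1.41, 1.68 and 0.665 times in the shNAT10-labelled inputs. The order of the copies turned only in replicate 3 of the latter.

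Among 132 rows named for U1, 10 were above 0, and the pair held 89.1% to 99.6% of the summed U1 level. That sum was 312, 583 and 1664 in the shNC inputs and 4454, 4277 and 2265 in the shNAT10-labelled inputs, and its groups did not overlap. RNVU1-7, a variant U1 gene, had 1.80, 1.86 and 101 against 43.9, 69.2 and 0. RNU1-2 had 0, 5.57 and 0 against 0, 69.2 and 5.09, and RNVU1-4 was above 0 in shNC replicate 3 alone, at 74.7.

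**Figure D2:**
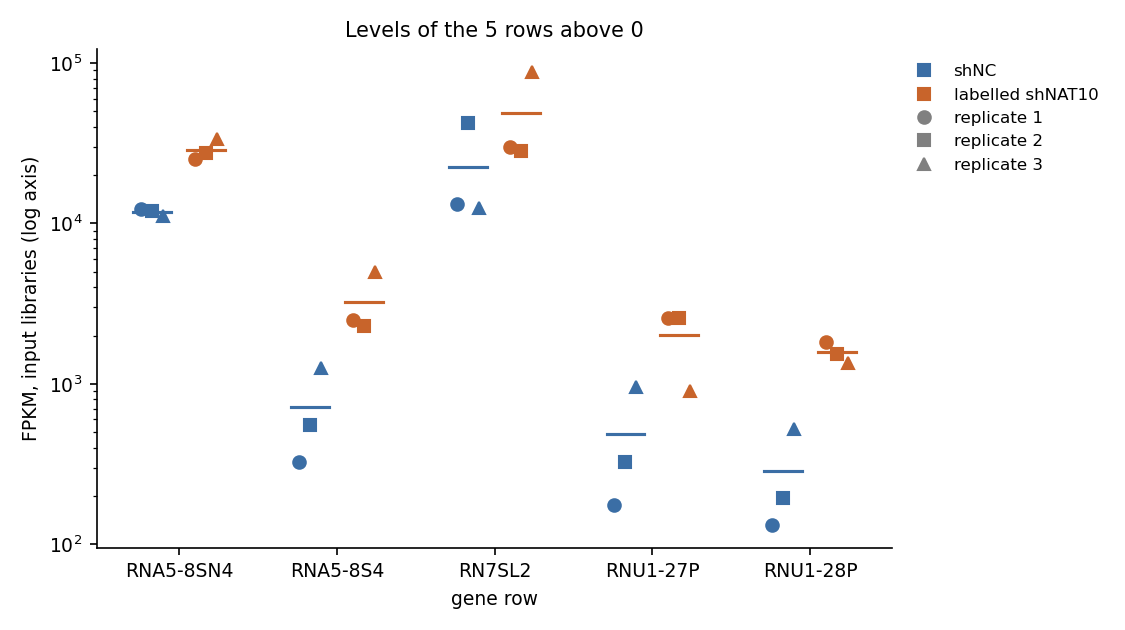
FPKM on a log axis (vertical) of the 5 member rows above 0 (horizontal) in the 6 input libraries; each point is a library, its shape the replicate number, and short lines are group means of 3. RNA5-8SN4, RNA5-8S4 and RNU1-28P do not overlap between the groups, whereas RN7SL2 and RNU1-27P do.

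Groups that did not overlap, with the shNAT10-labelled inputs higher, were thus seen in 3 of the 5 rows above 0, and in 304 of 10517 genes tested (2.89%). No member row had groups separated in the lower direction, which 707 genes (6.72%) had. The limma fit took the 10517 genes whose FPKM averaged 1 or more, and 20 (0.19%) had an adjusted p under 0.05, 9 higher and 11 lower. Median ratio scaling gave 14 with 8 higher, and quantile normalization gave 23 with 7 higher. Without any one shNC replicate 1 gene passed, without shNAT10-labelled replicate 2 the count was 34 and without replicate 1 it was 12, and with no filter on low values or without both libraries numbered 3 it was 0 (340 and 353 genes at an unadjusted p under 0.05). All 5 member rows above 0 were among the 9 called higher with all 6 libraries, RN7SL2 with overlapping groups included. That contrast was used to choose them, so their calls are no test of them, and nothing is read from these counts. For a gene of this level the fit leans on the spread of other genes (prior degrees of freedom 212.6).

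The depth behind the groups differed. On the U1 rows of 164 nt and the mitochondrial mRNAs used, deposited FPKM values were whole multiples of the worth of 1 fragment. These steps gave the number of fragments each library was divided by. The divisor was 3383204, 3284599 and 3426872 in the shNC inputs and 1389633, 1498313 and 1197889 in the shNAT10-labelled inputs, a ratio of means of 2.47. A single fragment on a 164 nt RNA counted as 1.80, 1.86 and 1.78 FPKM in shNC and as 4.39, 4.07 and 5.09 FPKM in the others.

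Recovered fragments on RNA5-8SN4 numbered 6392, 6047 and 5869 in the shNC inputs and 5370, 6299 and 6153 in the shNAT10-labelled inputs. The fragment numbers overlapped, and their means were 6103 and 5941. As a share of the denominator they were 0.189%, 0.184% and 0.171% in shNC and 0.386%, 0.420% and 0.514% in the others. The higher FPKM of RNA5-8SN4 thus stood beside like fragment numbers and a smaller divisor.

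RN7SL2 had 13363, 41557 and 12814 fragments in the shNC inputs and 12515, 12638 and 31660 in the shNAT10-labelled inputs. Apart from 1 library of each group these values were close to each other. Its share of the denominator was 0.374% to 1.27% for shNC and 0.843% to 2.64% otherwise.

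The less abundant copies had more fragments on average in the shNAT10-labelled inputs, but with overlapping groups. RNA5-8S4 had 169, 279 and 663 against 531, 523 and 910. RNU1-27P had 98, 175 and 538 against 586, 635 and 177, and RNU1-28P had 73, 105 and 296 against 417, 377 and 266. Of the 5 rows, 0 had groups that did not overlap in recovered fragments, against 3 in FPKM. Over the 10517 genes, 114 (1.08%) had groups that did not overlap in recovered fragments with the shNAT10-labelled inputs higher, and 1301 (12.4%) with them lower. Of the other copies, RN7SL3 had 244, 486 and 156 fragments against 375, 352 and 299, which overlap. RN7SKP71 had 2, 10 and 4 against 12, 12 and 15, which do not. The part of the divisor in the differences was not tested.

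**Figure D3:**
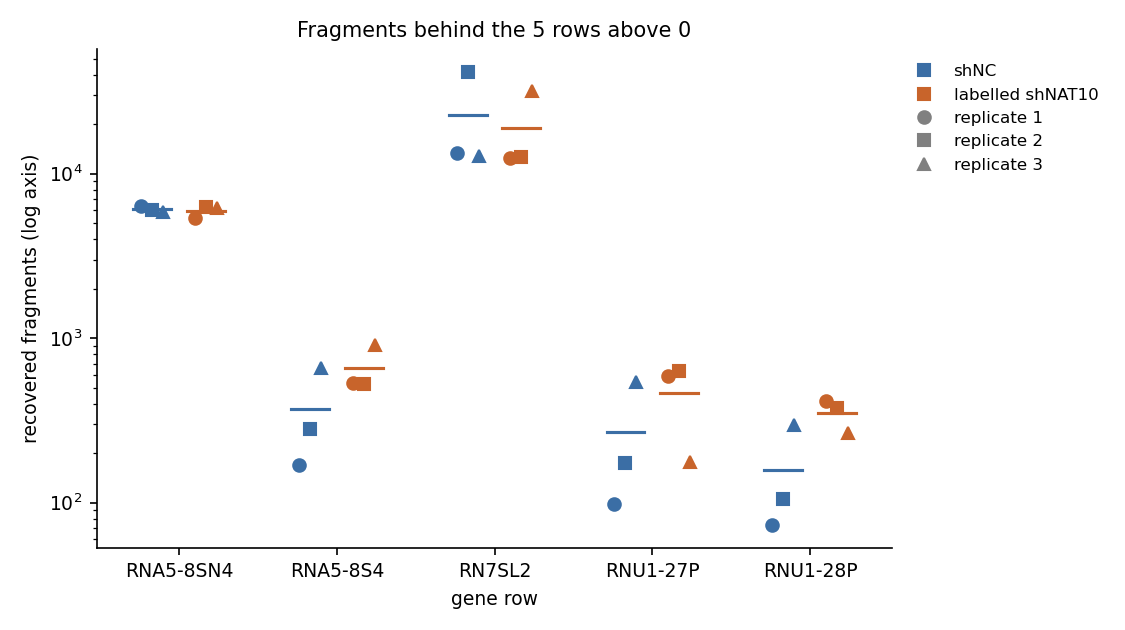
Fragments recovered from the deposited FPKM, on a log axis (vertical), for the 5 member rows above 0 (horizontal); each point is an input library, its shape the replicate number, and short lines are group means of 3. The points of both groups overlap in every row, and those of RNA5-8SN4 lie between 5370 and 6392.

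Likeness across the 6 input libraries was taken as Pearson's r of log2(FPKM + 1) over 2380 other genes above 0 in all 6. The libraries share their divisors between all genes, and the genes named are the extremes of many, so r is a description. For RNU1-27P the 3 closest were RNY1 (r = 0.99), RNU4-1 (0.98) and VTRNA1-1 (0.98), all of them small structural RNAs: a Y RNA, a U4 spliceosomal RNA and a vault RNA. RNY1 had FPKM 31.4, 75.4 and 142 in the shNC inputs and 331, 408 and 170 in the shNAT10-labelled inputs. VTRNA1-1 had 17.9, 18.5 and 73.7 against 204, 196 and 84.3, with the same low replicate 3 in the latter group.

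For RN7SL2 the closest was AL139099.2 (r = 0.99), an antisense RNA by the table, at 33.3, 72.9 and 38.1 against 63.0, 58.7 and 128, ahead of IGF2BP2 (0.95) and FAAP20 (0.94). For RNA5-8SN4 they were AC011511.5 (r = 0.99), CTTN (0.98) and DNMT1 (0.98). RNA5-8SN4 had 29 genes at r above 0.9, RNU1-27P 25 and RN7SL2 9. Between members, r was 0.95 for RNU1-27P with RNU1-28P, 0.87 for the pair of 5.8S copies, and 0.21 for RNU1-27P with RN7SL2. RNU1-28P with RNA5-8S4, copies of different RNAs, had 0.94.

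The authors' deposited table of differential ac4C peaks held 2364 peaks, 2 of them named for a member. The fold enrichment of a peak there is the authors' own value. The peak in RN7SL1 (chr14:49586610-49586789) covered nucleotides 31 to 210 of the 299 in the RefSeq gene, with a deposited fold of 2.33. A peak 1 nt away (chr14:49586609-49586788), named for AL139099.5, had a fold of 2.42 in the authors' deposited table. They are nearly the same interval, and have the second lowest and the lowest peak p of the table. Both gene rows were at 0 in all 6 input libraries.

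The peak in RN7SL2 (chr14:49862640-49862849) covered nucleotides 1 to 210, with a fold of 1.79 and rank 5 by p in the authors' deposited table. The peak in RN7SL3 (chr14:49853676-49853914) covered nucleotides 1 to 239, with a fold of 1.52 and rank 3. The peaks thus ended at nucleotide 209 or 210 on RN7SL1 and RN7SL2 and left the last stretch of each gene uncovered. A peak named 7SK lay on nucleotides 1 to 111 of RN7SK (chr6:52995620-52995730), with a fold of 3.22 and rank 7.

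These folds lay low in the authors' deposited table, whose median was 10.5. Of all peaks, 6.77% had a fold as low as that of RN7SL1 or lower, and 2.79% one as low as that of RN7SL2. The log2 change between the hairpins in the authors' deposited table was -0.38 for RN7SL1 and 1.21 for RN7SL2, opposite signs on near-identical RNAs, and -1.21 for RN7SL3 and 0.37 for 7SK. Which hairpin stood in the numerator was not stated. All 4 had the lowest log10 FDR of the change in that table, a value that 17 peaks share.

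A CXX site, a cytidine-rich repeat counted for each peak by the authors, stood in 62.6% of all peaks. The peaks on RN7SL1, RN7SL2 and RN7SL3 held 0 such sites and that on 7SK held 2. Other copies with a peak in the authors' deposited table were RN7SL4P (fold 4.34), RN7SL674P (3.37), RN7SKP255 (7.55) and RN7SKP71 (2.68). These and the peaks on RN7SL3, 7SK and AL139099.5 were named after their values were seen. Of the peaks in genes of the lists described next, those of largest fold were in CCNT1 (310), SRPRA (268), SRP68 (48.2), SRP14 (44.7) and SRP9 (39.8). CCNT1 did not pass FPKM 1.92 in any input library. Another peak in CCNT1 had a fold of 26.7 and another in SRPRA 2.32. The part of a low input in these folds was not tested. No peak was named for a 5.8S or U1 row.

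**Figure D4:**
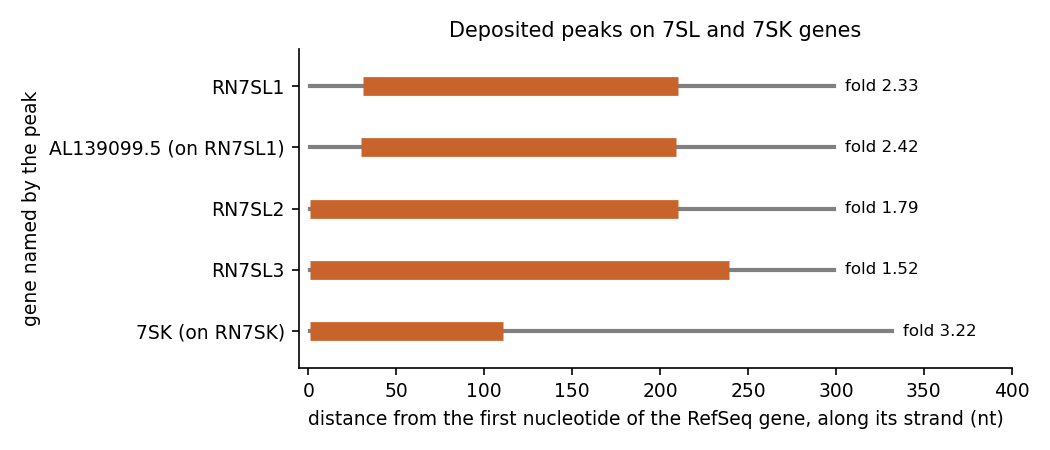
Deposited peaks (orange) on RefSeq genes of 7SL and 7SK (grey), by distance from the first nucleotide of the gene (horizontal axis, nt), one line for each gene the peak is named for (vertical axis), with the authors' fold enrichment at the right. The peaks on RN7SL1 and RN7SL2 end at nucleotide 209 or 210, and that on 7SK covers nucleotides 1 to 111.

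Protein partners and other structural RNAs were followed in 7 lists, of which 116 genes were tested. None passed limma over all genes (adjusted p under 0.05), and 5 (4.31%) had an unadjusted p under 0.05, 3 higher and 2 lower, near the 3.70% of all genes tested (389, of which 145 higher and 244 lower). The median log2 difference over all 10517 genes was -0.49.

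Protein partners had lower medians than that of all genes in 4 of the 5 protein lists. Only 9 of the 41 protein genes tested were above 0 in all 6 libraries, and 5 of these 9 were above 0 in difference, against 50.7% of all such genes. The signal recognition particle list had a median of -0.90 over 7 genes, 2 of them above 0 in difference. SRP9, a protein of the particle's Alu domain, had FPKM 71.7, 123 and 110 in the shNC inputs and 196, 0.386 and 6.28 in the shNAT10-labelled inputs, a log2 difference of -2.99 (SE 1.45, limma adjusted p = 0.754). SRP14, its partner there, had 2.36, 55.3 and 0.291 against 137, 0 and 0, so that neither group was uniform.

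The 7SK and P-TEFb list had a median of -0.41 over 4 genes, which turned to 0.23 under quantile normalization. CDK9, the P-TEFb kinase, had 76.4, 3.55 and 0.389 against 1.68, 48.9 and 1.39, and MEPCE, which caps 7SK, had 27.4, 44.8 and 10.6 against 0, 25.8 and 3.17. The U1 and Sm protein list had a median of -1.17 over 9 genes. In it SNRPB had 79.1, 37.2 and 32.7 against 0, 162 and 11.1, and SNRPG had 11.7, 1.02 and 24.7 against 63.3, 95.6 and 0.930. All 4 overlapped between the groups.

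The 5.8S maturation list had a median of -1.67 over 15 genes, with 3 above 0 in difference. XRN2, a 5′ exonuclease, had 0.086, 16.7 and 8.32 against 44.4, 5.24 and 14.6, and EXOSC10, an exosome nuclease that trims the 5.8S end, had 0.492, 43.9 and 31.5 against 0, 0 and 7.93. The RNA polymerase III and La list had a median of -1.10 over 6 genes. POLR3C, a subunit of the polymerase, had 0, 40.5 and 37.6 against 0 in each. None of these 3 genes separated the groups. Over the 5 protein lists 2 of the 41 genes tested did, both lower and both named after their values were seen. Over all 10517 genes, 707 (6.72%) were lower without overlap. EXOSC3, an exosome subunit, had 30.3, 29.2 and 6.18 in the shNC inputs and was listed at 0 in the others. SNRPD2, an Sm protein, had 0.919, 0.568 and 6.53 and was likewise listed at 0. Both rows passed the filter on mean FPKM through the shNC inputs alone, whose divisors were larger. The part of depth in their zeros was not tested.

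Other structural RNAs had a median of the opposite sign. Of 2146 rows 51 were above 0 and 41 were tested, with a median of 1.28 and 36 above 0 in difference, against 41.2% of all genes tested. Groups did not overlap in FPKM, higher, in 6 of the 41, against 304 of the 10517 genes tested (2.89%). RNU4-2, 1 of the 6, overlapped in recovered fragments, with 30, 30 and 66 in the shNC inputs against 142, 108 and 43. In recovered fragments the share over all genes was 114 of 10517 (1.08%). The count over the 41 was not repeated on that scale. Of the 41, 9 were above 0 in all 6 libraries and all 9 were above 0 in difference, against 50.7% of the 2381 such genes over all. Another 12 were above 0 in a single library, 9 of them in 1 labelled shNAT10, where a fragment is worth more FPKM. Rows at 0 in every shNC input, such as RNU2-42P and RNU5F-1, passed the filter on mean FPKM only through the other group. Their positive sign was thereby fixed, as was the negative sign of rows such as RNU6-780P, above 0 in shNC alone. Nothing is therefore read from the median or from the 36, and the medians of the other lists have the same limit. The 6 and the 9 rest on FPKM, whose divisors were smaller in the shNAT10-labelled inputs. The lists were chosen with earlier results of these data known, so nothing is read from the 6 or the 9 either.

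RNU4-2, the U4 spliceosomal RNA, led this list with 62.9, 64.8 and 137 in the shNC inputs and 725, 511 and 255 in the shNAT10-labelled inputs. Its groups did not overlap, and its log2 difference of 2.45 (SE 0.89) had a limma adjusted p of 0.720. It had 30, 30 and 66 recovered fragments against 142, 108 and 43, which overlap. RNA5SP78, a 5S pseudogene, was above 0 in 1 library alone, at 1409 in replicate 1 labelled shNAT10. The other copies of the member RNAs had a median of 0.50 over 34 tested of 1111 rows, 22 above 0 in difference, and RN7SL5P differed by 0.02 (SE 0.44, limma adjusted p = 0.994).

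**Figure D5:**
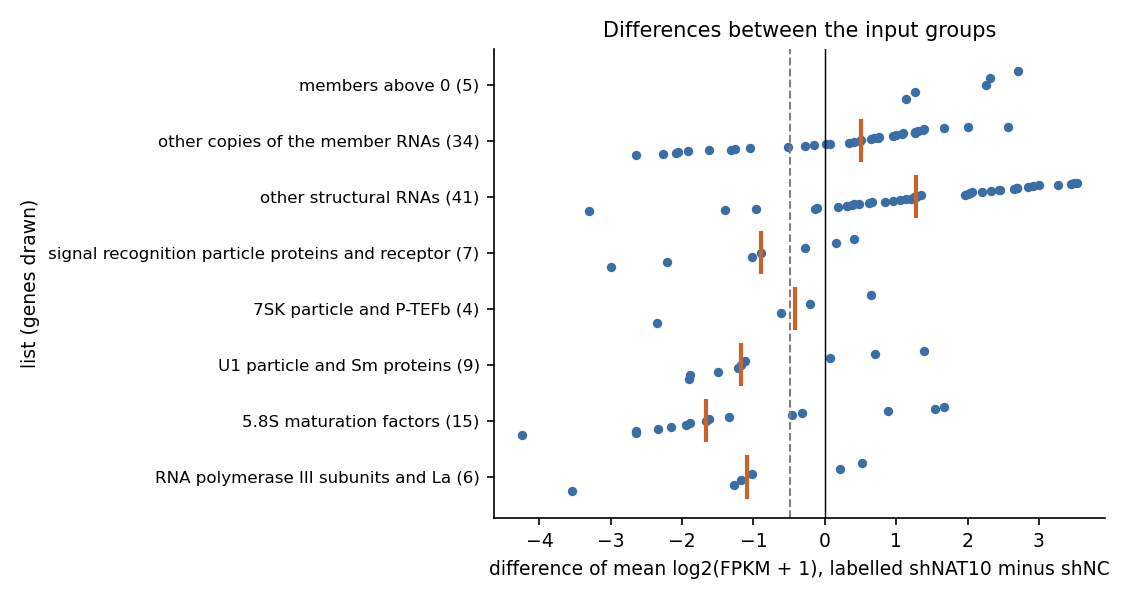
Difference of mean log2(FPKM + 1), libraries labelled shNAT10 minus shNC (horizontal axis), for the 5 members above 0 and the tested genes of each list (vertical axis, number of genes in brackets); points are genes, orange bars list medians, the dashed line the median of all genes tested at -0.49. Points of the members and most of those of the other structural RNAs lie above 0, and most of those of the protein lists below it. The sign of rows above 0 in a single group was fixed by the filter on mean FPKM.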

How the data were processed

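The authors deposited gene levels of the 6 input libraries as FPKM, per the file headers; 0 per-sample columns stayed unmapped. The sh columns were assigned to shNAT10 by elimination. The immunoprecipitated libraries are not analysed here one by one. The authors' deposited peak table gives, per the file headers, a fold enrichment (a ratio), a log10 p-value and FDR, a log2 fold change and a score for each peak. The submitters' processing notes list HISAT2 2.1.0, HOMER 4.10.4 and cutadapt 2.5 without saying what each did, and a human and a mouse build. The counting tool, annotation release, strand setting and peak caller are not given in the sources used here. Coordinates are GRCh38, counted from 1.

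Differences are of mean log2(FPKM + 1), shNAT10 minus shNC, so they understate low genes. The fit was limma 3.58.1 (R 4.3.3, eBayes with trend, Benjamini-Hochberg over 10517 genes with mean FPKM of at least 1). It used both input groups and no block. Its code was run on simulated normal log values, with the same spread in both groups and no difference in depth. That run does not show how the fit handles the many zeros and the unequal depth of these libraries. Same-numbered libraries were not paired: the correlations of their deviations were 0.001, -0.021 and 0.015.

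Fragments were recovered from the U1 rows of 164 nt (steps whole within 0.01) and sharpened on mitochondrial mRNAs of RefSeq length, of which 13 of 13 came out whole within 0.05 in 5 libraries and 12 of 12 above 0 in the other. As those lengths set the scale, this is no independent check. A member's length was the smallest that gave whole fragments in all 6 (153 nt for 5.8S, 300 nt for RN7SL2, 164 nt for U1).

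Members and lists were chosen with earlier results of these data known. Genes named were the members, NAT10, per list the 2 that passed with the largest difference or else the 2 of highest mean FPKM, the 3 most abundant other copies of each RNA, the 3 genes of highest r, and the 5 companion peaks of largest fold. The peaks on RN7SL3, 7SK, AL139099.5, RN7SL4P, RN7SL674P, RN7SKP255 and RN7SKP71, and the genes EXOSC3 and SNRPD2, fall outside this rule. Some items that the rule names are not reported here.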

Additional observations from a re-analysis of the deposited data

How the results depend on the processing

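The count of 20 genes called was 0 with no filter on low values (340 at an unadjusted p under 0.05), 10 with a filter at mean FPKM 5, and 1 to 34 with a replicate left out: 1 without shNC replicate 1, 2 or 3, and 12 and 34 without replicate 1 or 2 labelled shNAT10. Among settings added after the data were seen, the count was 0 without both libraries labelled shNAT10 whose NAT10 exceeded shNC (1139 at an unadjusted p under 0.05) and 0 without both libraries numbered 3 (353). With the replicate block it was 21. No companion gene passed limma in any setting, the replicate block included. No member difference changed sign in any alternative run. The members were chosen on this contrast in these libraries, so the unchanged signs lend it no support. The log2 difference of RNA5-8SN4 was 0.99 rescaled to TPM and 0.58 under quantile normalization, and without a replicate that of RN7SL2 ran from 0.61 to 1.72, RNU1-27P from 1.70 to 2.92. Summed over all 7SL copies the difference was 0.93. With members alone as the denominator RN7SL2 held 100.0% of 7SL against a mean of 62.7%, and 55.9% to 69.2% with a replicate left out. The causes were not tested. The recovered fragments cover counting only, and rows of few fragments have coarse steps in FPKM.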
